A study of Homo sapiens with 14 samples.

Results

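The transcriptomes of CWR22RV1 cells treated with Fucotrim I or Fucotrim II were compared directly with those of cells treated with the sialylation inhibitor P-SiaFNEtoc, without the vehicle in the contrast. CWR22RV1 is an established human prostate cancer cell line. The cells were kept for 72 h in Fucotrim I at 30 μM (n = 3 libraries), Fucotrim II at 60 μM (n = 2) or P-SiaFNEtoc at 2 μM (n = 3), and no other treatment separates the groups. A gene was chosen only when it differed from P-SiaFNEtoc with both Fucotrims in the same direction, each at an adjusted p-value under 0.05 in edgeR's quasi-likelihood test. Of 14686 genes tested, 2955 met this rule, and 1613 of them were higher and 1342 lower with the Fucotrims than with P-SiaFNEtoc. Each inhibitor was given at 1 dose, so that compound, dose and pathway cannot be told apart. The 3 DMSO vehicle libraries and 3 libraries of the fucosylation inhibitor SGN-2FF (100 μM) are given only as context.

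Fucose and sialic acid are sugars that often end the glycan chains of glycoproteins and glycolipids. Fucosyltransferases use GDP-fucose, which cells make de novo from GDP-mannose or by salvage of free fucose, and sialyltransferases use CMP-sialic acid. The first enzyme of the de novo route, GMDS, is the intended target of both Fucotrims, which were built on a phosphorylated rhamnose, and P-SiaFNEtoc is a metabolic inhibitor of sialyltransferases. On epithelial cells, such terminal sugars take part in adhesion and in recognition by lectins.

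The 8 libraries held between 12553094 and 19981314 counts on the 27819 genes shared by their tables. HOXB13 and KRT18 of the 8 luminal markers were higher with both Fucotrims. Of the markers of other cell types, KRT5 (basal) and PTPRC (immune) averaged 0.00 and 0.05 CPM (counts scaled to 1e+06 per library), while DST (basal) averaged 64.45 CPM, COL1A1 (fibroblast) 20.79 CPM, CD68 (immune) 6.07 CPM, and the neuroendocrine markers SYP and CHGB 117.33 and 69.07 CPM. None of these lists had a gene chosen with both Fucotrims, but SYP, CHGB and COL1A1 were higher with Fucotrim II (log2 fold changes of 0.42, 0.40 and 0.49). The 6 neuroendocrine markers summed to 169.5 to 195.5 CPM with Fucotrim I, 222.1 to 240.4 CPM with Fucotrim II and 171.7 to 177.4 CPM with P-SiaFNEtoc, and the part of these genes in other results was not tested. Reads on mitochondrially encoded genes made up 8.67% to 14.25% of the counts with Fucotrim I, 12.15% to 17.03% with Fucotrim II and 6.11% to 6.83% with P-SiaFNEtoc. Between SRCIN1 and RPL23 on chromosome 17, 8 neighbouring genes had 0 counts in all 5 Fucotrim libraries and up to 126 counts in the others, while none of the 13 genes listed there had a count with either Fucotrim. MLLT6 and PSMB3 of this stretch, and NMRAL1 on chromosome 16, are among the lower genes with 0 counts in every Fucotrim library, and 1339 lower genes remained without these 3. Against a floor of 3 counts per library they were at least 10.2-fold (MLLT6), 4.03-fold (PSMB3) and 4.1-fold (NMRAL1) lower. No gene had the opposite pattern of 0 counts with P-SiaFNEtoc and at least 5 counts in each Fucotrim library. The deposited counts covered 27819 genes for each Fucotrim and 27845 genes for P-SiaFNEtoc, and 335 symbols differed between the gene sets. When the shared genes were joined, every P-SiaFNEtoc library lost some counts and no Fucotrim library did. The deposited gene sets thus differed between the groups compared, and whether the libraries were counted in the same way was not tested.

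Fucotrim II differed from P-SiaFNEtoc at more genes than Fucotrim I did. The Fucotrim I libraries were the shallowest, at 12553094 to 14947100 counts. Those of Fucotrim II held 18183854 to 19099194 counts and those of P-SiaFNEtoc 15424432 to 19981314. The part of depth in the numbers of genes called was not tested. With Fucotrim I, 1922 genes were higher (13.1% of those tested) and 1747 lower (11.9%), and with Fucotrim II, 3430 were higher (23.4%) and 3300 lower (22.5%). The genes chosen with both made up 11% (higher) and 9.14% (lower) of all genes tested. Both comparisons use the same P-SiaFNEtoc libraries, so that their overlap was not tested. Another 51 genes differed with both Fucotrims in opposite directions, 10 of them higher and 41 lower with Fucotrim I, while 663 differed only with Fucotrim I, 3724 only with Fucotrim II and 7293 with neither.

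**Figure D1:**
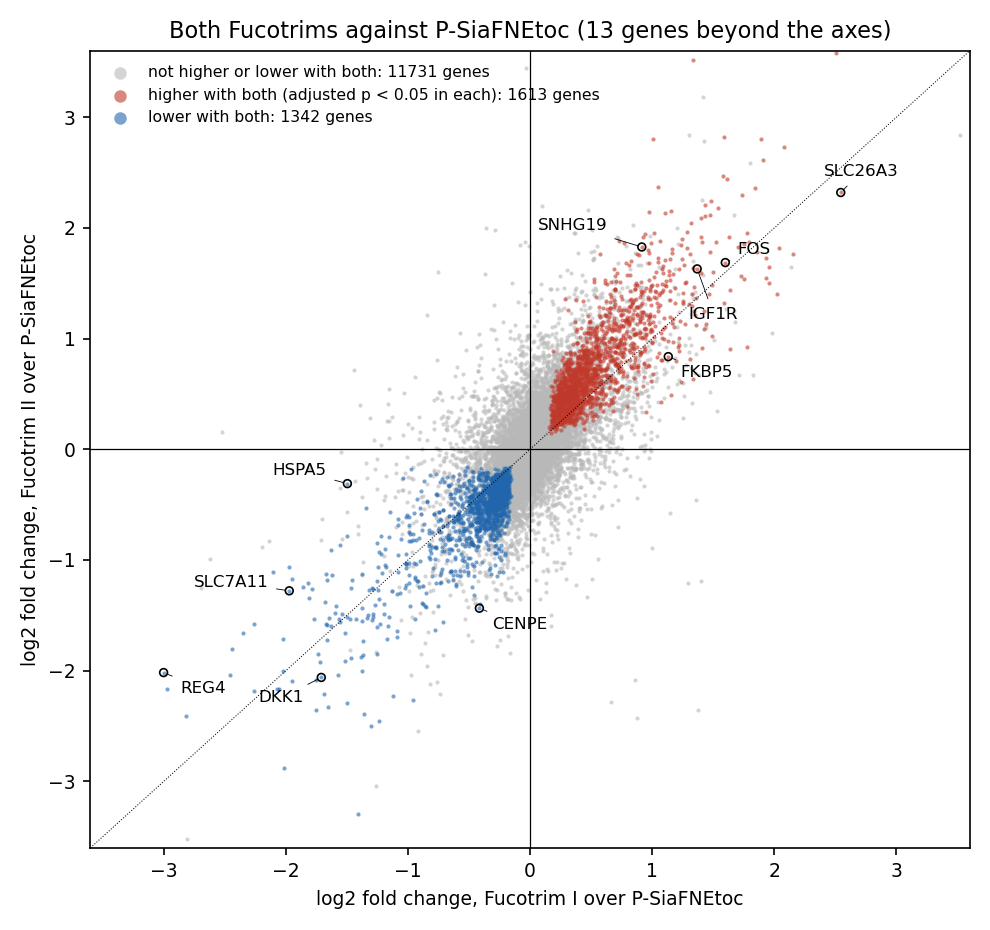
Log2 fold change of each gene with Fucotrim I (horizontal) and Fucotrim II (vertical) over P-SiaFNEtoc; points are genes, red for the 1613 higher and blue for the 1342 lower with both, and the dotted line marks equal change. Most chosen genes lie on the Fucotrim II side of the dotted line (2377 of 2955), while REG4, SLC7A11 and HSPA5 lie on the other side.

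Most of the differences were modest. The median log2 fold change of the higher genes was 0.44 with Fucotrim I and 0.65 with Fucotrim II, and that of the lower genes was -0.33 and -0.49. Over all genes tested the median size, whatever the direction, was 0.17 with Fucotrim I and 0.28 with Fucotrim II. Both log2 fold changes were beyond 0.58 for 488 higher and 249 lower genes, and beyond 1 for 132 higher and 106 lower genes. In 1597 of the 1613 higher genes all 5 Fucotrim libraries were above all 3 P-SiaFNEtoc libraries, and in 1331 of the 1342 lower genes they were below. The genes were chosen by a test of these same libraries, so that this separation adds no support. Over all genes tested, 2553 (17.4%) were separated upward in this way and 2487 (16.9%) downward. Closest to the threshold, SLC25A20 (adjusted p = 0.0499 with Fucotrim II) and TADA3 (adjusted p = 0.05 with Fucotrim I, unrounded just under the limit) were inside, and SLC35A5 and LINC00173 were just outside. Fucotrim II was farther from P-SiaFNEtoc than Fucotrim I for 2377 of the 2955 genes, and its difference from Fucotrim I was itself past the threshold for 828, of which 771 were farther with Fucotrim II and 57 with Fucotrim I. The count of 2955 genes fell to 1809 without Fucotrim I replicate 3, to 1895 without P-SiaFNEtoc replicate 1 and to 1871 without P-SiaFNEtoc replicate 2. The p-values measure the spread between these libraries, which the study describes as biological repeats, and in bulk RNA fewer cells of a kind and less RNA per cell cannot be told apart.

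The vehicle was usually on the side of P-SiaFNEtoc. For 936 of the higher genes (58.0%) the mean of DMSO lay beyond that of P-SiaFNEtoc, away from the Fucotrims, and for 610 (37.8%) it lay between them and nearer to P-SiaFNEtoc. DMSO was nearer to the Fucotrims for 65 higher genes (4.03%) and beyond them for 2. Among the lower genes the corresponding numbers were 707 (52.7%), 470 (35.0%), 135 (10.1%) and 30 (2.24%). FOS, FOSB, ST6GALNAC5, RNF43 and GALNT12 are named below and belong to those nearer to the Fucotrims.

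The genes most raised with the Fucotrims relative to P-SiaFNEtoc encode a transporter, AP-1 subunits and a receptor phosphatase. SLC26A3, a chloride and bicarbonate exchanger of the gut epithelium (chr7:107765469-107803223; positions are those of RefSeq GRCh38.p14), measured 7.43, 7.13 and 7.07 CPM with Fucotrim I, 6.73 and 5.63 CPM with Fucotrim II and 1.42, 1.24 and 0.989 CPM with P-SiaFNEtoc. The lowest Fucotrim library was well above the highest P-SiaFNEtoc library, and SLC26A3 was 5.83-fold and 4.99-fold higher with Fucotrim I and Fucotrim II, with log2 fold changes of 2.54 (SE 0.18, adjusted p = 1.5e-07) with Fucotrim I and 2.32 (SE 0.19, adjusted p = 3.51e-07) with Fucotrim II. TBATA (chr10:70771238-70785377) measured 4.81, 5.8 and 7.8 CPM with Fucotrim I, 4.25 and 6.18 CPM with Fucotrim II and 1.51, 1.3 and 1.61 CPM with P-SiaFNEtoc, again with no overlap. Its log2 fold changes were 2.04 with Fucotrim I and 1.82 with Fucotrim II (adjusted p = 1.34e-05 and 3.11e-05). PTPRZ1, a receptor-type tyrosine phosphatase (chr7:121873161-122062036), was at 5.31, 6.8 and 6.24 CPM with Fucotrim I, 5.31 and 5.35 CPM with Fucotrim II and 1.89, 1.98 and 2.04 CPM with P-SiaFNEtoc. That is 3.1-fold and 2.7-fold higher (adjusted p = 5.94e-06 and 1.54e-05).

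FOS (chr14:75278828-75282230) and FOSB (chr19:45467996-45475179) encode AP-1 subunits that are induced within minutes of many stimuli. FOS stood at 108, 70.7 and 59.3 CPM with Fucotrim I, 85.7 and 83.6 CPM with Fucotrim II and 24.9, 19.8 and 34.2 CPM with P-SiaFNEtoc. The Fucotrim I replicates spread most, the Fucotrim libraries did not overlap with those of P-SiaFNEtoc, and the log2 fold changes were 1.60 (SE 0.29, adjusted p = 0.0104) with Fucotrim I and 1.69 (SE 0.31, adjusted p = 0.00556) with Fucotrim II. DMSO, at 51.1, 57 and 76.2 CPM, was above P-SiaFNEtoc as well, so that P-SiaFNEtoc was the lowest condition. FOSB measured 20.9, 10.3 and 6.82 CPM with Fucotrim I, 8.03 and 10.5 CPM with Fucotrim II and 3.45, 2.6 and 3.77 CPM with P-SiaFNEtoc, with log2 fold changes of 1.96 with Fucotrim I and 1.50 with Fucotrim II (adjusted p = 0.0153 and 0.036), and lost its call in 10 of 22 alternatives, with adjusted p up to 0.268, among them the removal of any P-SiaFNEtoc or Fucotrim II library.

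TRNC, the mitochondrial transfer RNA for cysteine (chrMT:5761-5826), was the third-ranked gene, at 7.78, 9.8 and 10.9 CPM with Fucotrim I, 20.9 and 12.9 CPM with Fucotrim II and 2.65, 3.71 and 3.03 CPM with P-SiaFNEtoc. Fucotrim II replicate 1 was the highest library, and the log2 fold changes were 1.61 with Fucotrim I and 2.44 with Fucotrim II (adjusted p = 5.63e-05 and 4.42e-07). TRNC lies on the opposite strand from the mitochondrial mRNAs beside it, and the strand setting of the counting is not given in the sources used here. IGF1R, the receptor of insulin-like growth factor 1, and S100P, a calcium-binding protein, were named after their values were seen. IGF1R (chr15:98648539-98964530) measured 26.9, 28.4 and 28.6 CPM with Fucotrim I, 38.8 and 28.3 CPM with Fucotrim II and 11.3, 11.9 and 9.15 CPM with P-SiaFNEtoc, 2.58-fold and 3.09-fold higher (adjusted p = 1.9e-06 and 2.45e-07). S100P (chr4:6693878-6697170) measured 83.9, 74.6 and 88 CPM with Fucotrim I, 101 and 116 CPM with Fucotrim II and 34.1, 33.5 and 35.4 CPM with P-SiaFNEtoc, 2.39-fold and 3.17-fold higher (adjusted p = 4.51e-08 and 3.7e-09), and here P-SiaFNEtoc was itself above DMSO (22.9, 23.6 and 24.8 CPM).

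**Figure D2:**
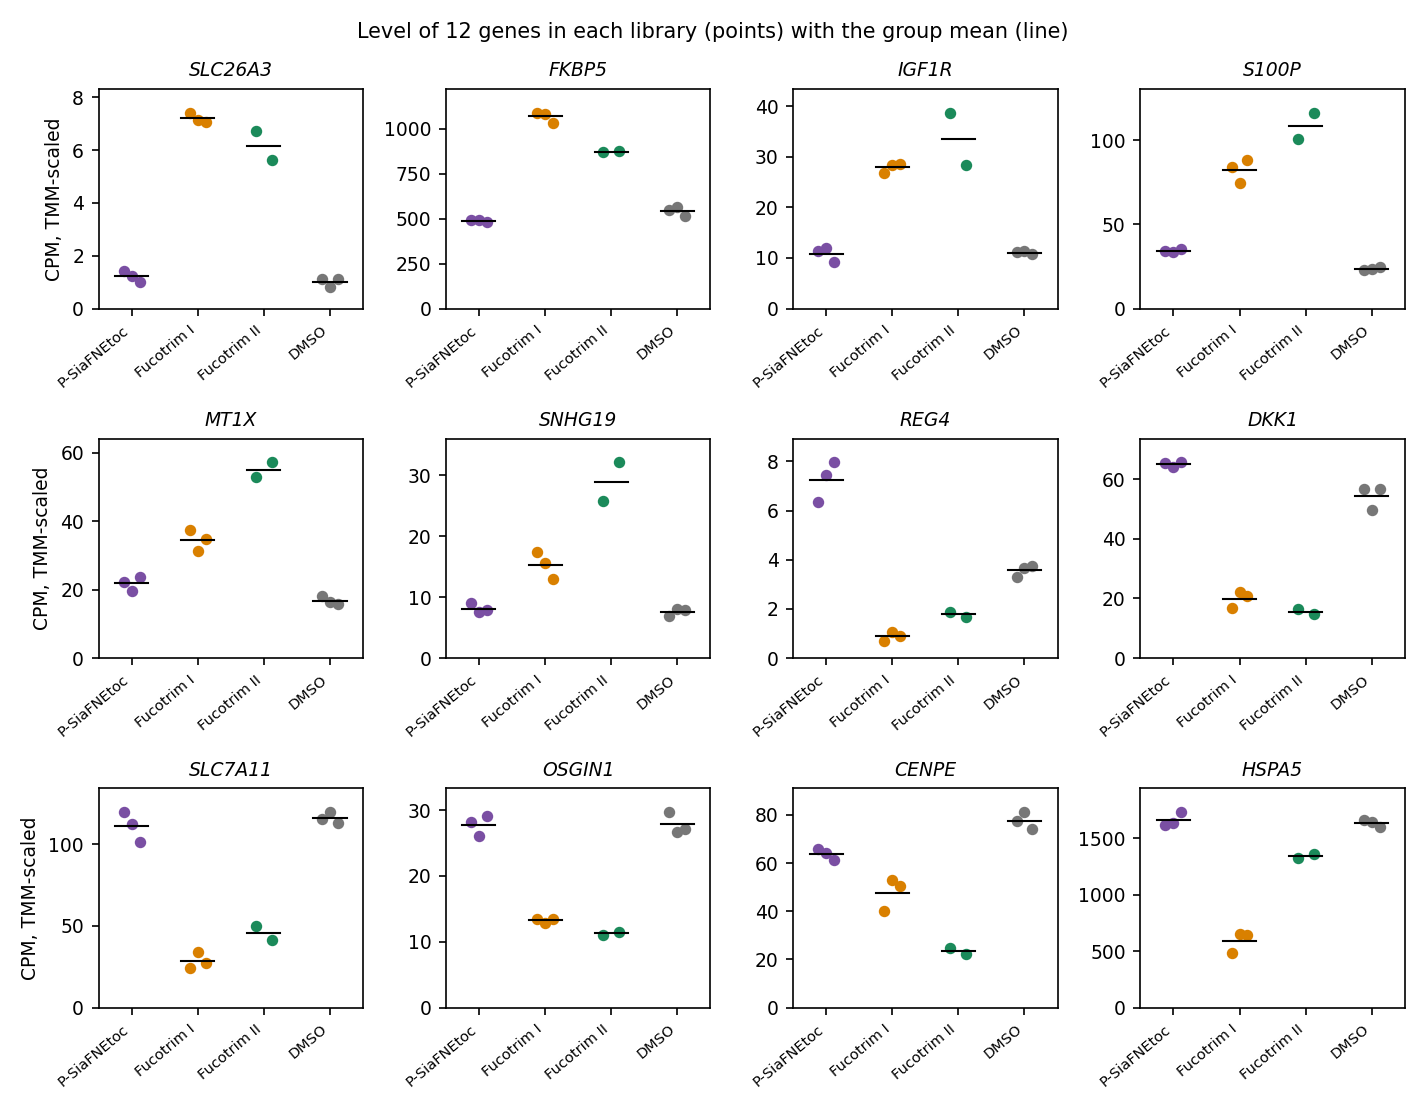
TMM-scaled CPM (vertical axes, each from 0) of 12 chosen genes in each library of P-SiaFNEtoc, Fucotrim I, Fucotrim II and DMSO; points are libraries and lines group means. In every panel the 5 Fucotrim points lie on 1 side of the 3 P-SiaFNEtoc points, and HSPA5 and CENPE show unequal steps for the 2 Fucotrims.

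The largest differences in the other direction included secreted proteins. REG4, a secreted C-type lectin of the intestine (chr1:119794017-119811460), measured 0.707, 1.07 and 0.904 CPM with Fucotrim I, 1.89 and 1.67 CPM with Fucotrim II and 6.34, 7.43 and 7.97 CPM with P-SiaFNEtoc. It was 8-fold and 4.05-fold lower, with log2 fold changes of -3.00 (SE 0.21, adjusted p = 1.25e-07) with Fucotrim I and -2.02 (SE 0.20, adjusted p = 1.82e-06) with Fucotrim II. In DMSO REG4 was at 3.28, 3.66 and 3.74 CPM, between the Fucotrims and P-SiaFNEtoc. DKK1, a secreted inhibitor of WNT signalling (chr10:52314281-52317657), measured 16.6, 22.1 and 20.9 CPM with Fucotrim I, 16.4 and 14.8 CPM with Fucotrim II and 65.3, 64 and 65.7 CPM with P-SiaFNEtoc. The P-SiaFNEtoc replicates were tight, the Fucotrims were 3.27-fold and 4.17-fold lower (adjusted p = 1.33e-08 and 4.75e-09), and DMSO was at 56.8, 49.6 and 56.6 CPM.

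SPTSSB, a small subunit of serine palmitoyltransferase, the entry enzyme of sphingolipid synthesis (chr3:161344798-161371517), was at 2.48, 2.67 and 2.79 CPM with Fucotrim I, 2.36 and 2.23 CPM with Fucotrim II and 10.1, 8.23 and 7.73 CPM with P-SiaFNEtoc. Its log2 fold changes were -1.72 with Fucotrim I and -1.92 with Fucotrim II (adjusted p = 2.76e-06 and 1.1e-06). A1CF, an RNA-binding cofactor of apolipoprotein B mRNA editing (chr10:50799409-50885627), measured 8.84, 9.13 and 8.3 CPM with Fucotrim I, 9.03 and 9.69 CPM with Fucotrim II and 29.8, 27.9 and 26.3 CPM with P-SiaFNEtoc, with log2 fold changes of -1.67 with Fucotrim I and -1.58 with Fucotrim II (adjusted p = 2.07e-08 and 5.66e-08). The long noncoding RNA LINC00673 (chr17:72403322-72592804) was at 5.94, 4.8 and 3.53 CPM with Fucotrim I, 3.37 and 3.29 CPM with Fucotrim II and 14.5, 14.9 and 16.9 CPM with P-SiaFNEtoc, with log2 fold changes of -1.68 with Fucotrim I and -2.21 with Fucotrim II (adjusted p = 1.46e-06 and 2.15e-07). In all 3 genes the Fucotrim libraries lay below every P-SiaFNEtoc library.

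The next 4 genes encode secreted or adhesion proteins and were named after their values were seen. IGFBP3, which binds insulin-like growth factors in the extracellular space (chr7:45912245-45921272), measured 85.3, 77.6 and 83.3 CPM with Fucotrim I, 63.8 and 59.1 CPM with Fucotrim II and 218, 219 and 243 CPM with P-SiaFNEtoc, and was 2.76-fold and 3.69-fold lower (adjusted p = 5.94e-09 and 7.38e-10). CCN2, a matricellular protein (chr6:131948176-131951372), measured 9.2, 12 and 7.48 CPM with Fucotrim I, 6.73 and 7.18 CPM with Fucotrim II and 28.4, 27.5 and 30.1 CPM with P-SiaFNEtoc, 2.97-fold and 4.12-fold lower (adjusted p = 5.46e-07 and 1.03e-07). AREG, a ligand of the EGF receptor (chr4:74445136-74455005), was at 4.17, 4.67 and 4.03 CPM with Fucotrim I, 4.37 and 4.62 CPM with Fucotrim II and 10.9, 9.96 and 9.89 CPM with P-SiaFNEtoc, 2.38-fold and 2.28-fold lower (adjusted p = 6.54e-06 and 9.38e-06). For these genes DMSO was between the groups and nearer to P-SiaFNEtoc. CDH2, N-cadherin (chr18:27932879-28177130), had few reads, at 1.63, 2.6 and 1.73 CPM with Fucotrim I, 2.36 and 1.17 CPM with Fucotrim II and 4.73, 5.01 and 5.5 CPM with P-SiaFNEtoc, and was 2.53-fold and 2.88-fold lower (adjusted p = 0.000755 and 0.000269).

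The chosen genes were then counted in 24 gene lists of pathways, which had been written with earlier results of these data known and were not tested as sets. Shares are given beside the 11% of genes higher and 9.14% lower among all genes tested. Mitochondrially encoded mRNAs (11 of 13 higher), cytosolic ribosomal proteins (20 of 26), metallothioneins (5 of 7) and small nucleolar RNA (snoRNA) host genes (9 of 16) were above the first share, and NRF2 targets (10 of 17 lower), the ATF4 branch (6 of 14) and G2 and M phase genes (21 of 54) above the second.

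**Figure D3:**
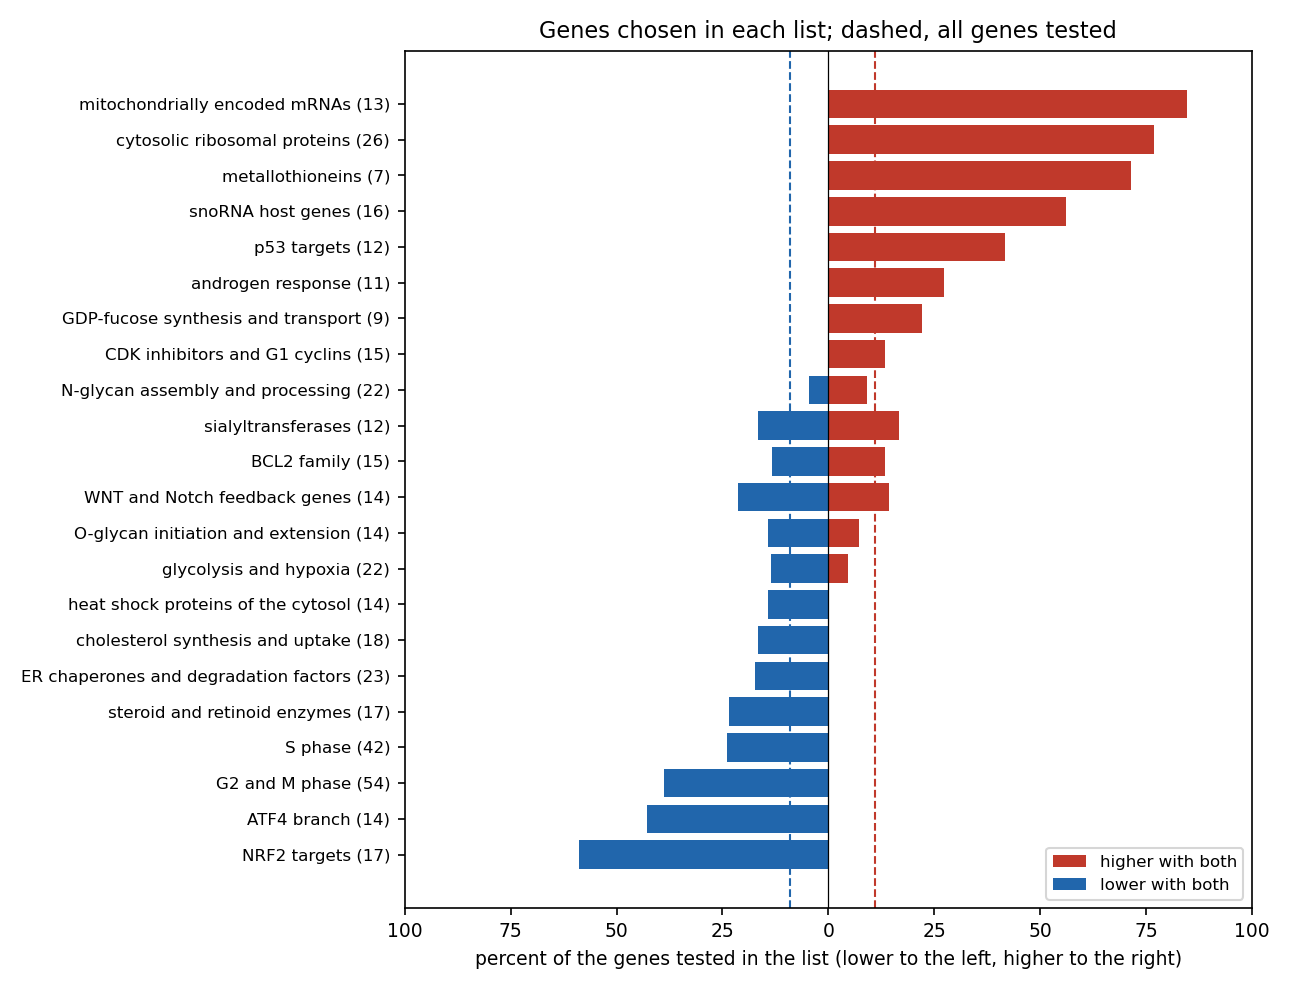
Percent of the tested members of each list (number in brackets) that were higher (red, to the right) or lower (blue, to the left) with both Fucotrims; dashed lines mark the 11% and 9.14% of all genes tested. The bars of mitochondrial mRNAs, ribosomal proteins and metallothioneins reach beyond 70% on the right, and NRF2 targets reach farthest on the left.

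Among the lists of the targeted sugars, GDP-fucose synthesis and transport had 22.2% of its genes higher, and sialyltransferases had 16.7% higher and 16.7% lower. Over all genes tested these shares were 11% and 9.14%, and the lists are short. In GDP-fucose synthesis and transport, FCSK and FUOM of 9 genes were higher, and both act in the salvage of free fucose: FCSK is fucokinase and FUOM is fucose mutarotase. FCSK (chr16:70454595-70480274) measured 44.2, 44 and 45.4 CPM with Fucotrim I, 50.2 and 51.7 CPM with Fucotrim II and 34.4, 34.7 and 36.8 CPM with P-SiaFNEtoc, with log2 fold changes of 0.33 (SE 0.07, adjusted p = 0.00191) with Fucotrim I and 0.53 (SE 0.07, adjusted p = 3.23e-05) with Fucotrim II. FUOM (chr10:133352773-133358019) measured 28.9, 25.5 and 29.6 CPM with Fucotrim I, 25.2 and 28 CPM with Fucotrim II and 21.1, 20.9 and 21.2 CPM with P-SiaFNEtoc, with log2 fold changes of 0.41 with Fucotrim I and 0.34 with Fucotrim II (adjusted p = 0.00269 and 0.00813). All Fucotrim libraries were above all P-SiaFNEtoc libraries for both genes, and the FUOM call was lost in 3 of 22 alternatives, with adjusted p up to 0.222. Without Fucotrim II replicate 1 the count of higher genes in this list was 4 in place of 2. Of 8 fucosyltransferases and 9 genes of sialic acid synthesis, transport and removal, none was chosen. POFUT2, a protein O-fucosyltransferase, just missed the threshold (log2 fold changes of 0.21 and 0.49, adjusted p = 0.0522 and 0.000204), and 1 fucosyltransferase was higher without Fucotrim II replicate 1, Fucotrim II replicate 2 or P-SiaFNEtoc replicate 2.

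Among 12 sialyltransferases, ST3GAL5 and ST3GAL6 were higher and ST3GAL1 and ST6GALNAC5 lower with both Fucotrims. ST3GAL1, which adds sialic acid to core 1 O-glycans, was the most abundant of the 4, at 249.6, 229 and 234 CPM with Fucotrim I, 255 and 275 CPM with Fucotrim II and 318, 313 and 292 CPM with P-SiaFNEtoc. Its log2 fold changes were -0.37 with Fucotrim I and -0.22 with Fucotrim II (adjusted p = 0.0004 and 0.0165). ST6GALNAC5, which acts on gangliosides (chr1:76867480-77067546), measured 3.68, 4.4 and 4.44 CPM with Fucotrim I, 3.25 and 3.51 CPM with Fucotrim II and 5.63, 6.13 and 6.68 CPM with P-SiaFNEtoc, and with DMSO at 3.66, 4.21 and 3.92 CPM the P-SiaFNEtoc libraries were the highest. Its log2 fold changes were -0.56 with Fucotrim I and -0.86 with Fucotrim II (adjusted p = 0.0133 and 0.00075). ST3GAL5, the GM3 ganglioside synthase (chr2:85837120-85889034), had log2 fold changes of 0.32 with Fucotrim I and 0.28 with Fucotrim II (adjusted p = 0.0142 and 0.0244), and ST3GAL6 (chr3:98732262-98795852) of 0.83 with Fucotrim I and 0.74 with Fucotrim II (adjusted p = 0.0218 and 0.0321). These 4 calls were fragile: they were lost in 5 (ST3GAL1), 4 (ST6GALNAC5), 8 (ST3GAL5) and 9 (ST3GAL6) of 22 alternatives, with adjusted p up to 0.0736, 0.0568, 0.0943 and 0.239.

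Enzymes that build the underlying glycans were near the background. MAN2A2 and MGAT4B of 22 N-glycan genes were higher and MGAT2 lower. MAN2A2 was the 1 higher N-glycan gene when Fucotrim I replicate 1, Fucotrim I replicate 3 or any P-SiaFNEtoc library was left out. The count of lower genes was 0 without Fucotrim I replicate 3, P-SiaFNEtoc replicate 1 or P-SiaFNEtoc replicate 2, 2 without Fucotrim I replicate 2, 3 without Fucotrim II replicate 2 and 4 without Fucotrim II replicate 1. MAN2A2, a Golgi mannosidase (chr15:90902382-90922585), measured 109.7, 119 and 123 CPM with Fucotrim I, 149 and 109.7 CPM with Fucotrim II and 79.7, 81.1 and 80.5 CPM with P-SiaFNEtoc, with log2 fold changes of 0.54 with Fucotrim I and 0.68 with Fucotrim II (adjusted p = 0.000442 and 5.17e-05). MGAT2, which starts the second antenna of complex N-glycans (chr14:49620799-49623481), had log2 fold changes of -0.22 with Fucotrim I and -0.38 with Fucotrim II (adjusted p = 0.0253 and 0.000754), a call lost in 7 of 22 alternatives, with adjusted p up to 0.111. Of 14 O-glycan genes, GALNT12 was higher and GALNT3 and GCNT1 lower. GALNT3 and GALNT12 both start O-glycans by adding N-acetylgalactosamine. GALNT3 (chr2:165747588-165794692) measured 21.1, 22.3 and 20.5 CPM with Fucotrim I, 22.4 and 23.7 CPM with Fucotrim II and 39.3, 42.3 and 39.1 CPM with P-SiaFNEtoc, with log2 fold changes of -0.91 with Fucotrim I and -0.80 with Fucotrim II (adjusted p = 8.95e-07 and 2.97e-06), while GALNT12 (chr9:98807670-98850081) measured 4.1, 4.33 and 3.12 CPM with Fucotrim I, 5.67 and 4.62 CPM with Fucotrim II and 2.51, 1.73 and 2.41 CPM with P-SiaFNEtoc, with log2 fold changes of 0.79 with Fucotrim I and 1.20 with Fucotrim II (adjusted p = 0.01 and 0.000285). The GALNT12 call was lost without P-SiaFNEtoc replicate 2 (adjusted p = 0.0547), and without either Fucotrim II library 2 O-glycan genes were higher and 4 lower.

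Many genes of antioxidant defence were lower with both Fucotrims. NRF2 is a transcription factor that raises antioxidant and detoxifying genes, and 10 of 17 of its listed targets were lower and none higher, with list medians of -0.30 (Fucotrim I) and -0.52 (Fucotrim II) on the log2 scale. The 10 were SLC7A11, OSGIN1, AKR1C1, ME1, TXNRD1, HMOX1, NQO1, GCLM, SRXN1 and TKT. SLC7A11, the cystine and glutamate exchanger that feeds glutathione synthesis (chr4:138164097-138242349), measured 23.9, 33.8 and 27.1 CPM with Fucotrim I, 50.2 and 41.5 CPM with Fucotrim II and 119.9, 112 and 101 CPM with P-SiaFNEtoc. It was 3.92-fold and 2.43-fold lower, with log2 fold changes of -1.97 (SE 0.11, adjusted p = 2.1e-08) with Fucotrim I and -1.28 (SE 0.12, adjusted p = 1.14e-06) with Fucotrim II. OSGIN1, an oxidative stress-induced growth inhibitor (chr16:83953240-83966332), measured 13.5, 12.9 and 13.5 CPM with Fucotrim I, 11 and 11.5 CPM with Fucotrim II and 28.2, 26 and 29.1 CPM with P-SiaFNEtoc. OSGIN1 was 2.09-fold and 2.47-fold lower (adjusted p = 7.13e-07 and 1.6e-07), and its levels of 29.8, 26.6 and 27.1 CPM in DMSO were close to those with P-SiaFNEtoc, while SGN-2FF, at 11.6, 12.6 and 12.8 CPM, was close to the Fucotrims. The count of 10 ranged from 9 to 12 when any 1 library was left out.

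ATF4 is the transcription factor of the integrated stress response, and its targets serve amino acid supply. In this list of 14, SLC7A11, CHAC1, ASNS, PSAT1, TRIB3 and SLC7A5 were lower with both Fucotrims and none was higher. PSAT1, an enzyme of serine synthesis (chr9:78297125-78330093), measured 138, 148 and 132 CPM with Fucotrim I, 158 and 158 CPM with Fucotrim II and 231, 230.5 and 242 CPM with P-SiaFNEtoc, with log2 fold changes of -0.75 with Fucotrim I and -0.57 with Fucotrim II (adjusted p = 4.83e-07 and 7.05e-06). The list medians were -0.70 with Fucotrim I and -0.08 with Fucotrim II, and 12 of the 14 were lower with Fucotrim I against 6 lower and 1 higher with Fucotrim II. Of the 5 chosen genes with a promoter in the RefSeq table, CHAC1 and ASNS hold TGATGNAA, the letters of the amino acid response element, which 3.67% of all 27305 promoters hold on either strand.

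The list of endoplasmic reticulum chaperones and degradation factors split the 2 Fucotrims. HSPA5, PDIA6, DNAJC3 and EDEM1 of 23 genes were lower with both (17.4%, beside 9.14% of all genes tested). In the single comparisons 20 were lower with Fucotrim I (median -0.76), and 8 higher and 4 lower with Fucotrim II (median 0.06). In the list, 7 genes went in opposite directions with the 2 Fucotrims. HSPA5, the chaperone BiP and a central marker of the unfolded protein response (chr9:125234853-125241343), measured 479, 649.7 and 641 CPM with Fucotrim I, 1326 and 1358 CPM with Fucotrim II and 1620.0, 1636 and 1736 CPM with P-SiaFNEtoc. Fucotrim I was far below and Fucotrim II slightly below P-SiaFNEtoc, with log2 fold changes of -1.50 (SE 0.09, adjusted p = 4.93e-08) with Fucotrim I and -0.31 (SE 0.10, adjusted p = 0.0232) with Fucotrim II. DNAJC3, a co-chaperone of HSPA5 (chr13:95677139-95794988), measured 88.5, 101 and 91.1 CPM with Fucotrim I, 141 and 133 CPM with Fucotrim II and 164, 159 and 157 CPM with P-SiaFNEtoc, with log2 fold changes of -0.77 with Fucotrim I and -0.22 with Fucotrim II (adjusted p = 7.04e-07 and 0.0165). The smaller Fucotrim II part did not hold throughout: the calls were lost in 7 (HSPA5) and 5 (DNAJC3) of 22 alternatives, among them the removal of the trend with GC content (adjusted p up to 0.257 and 0.857), and the count of 4 fell to 1 without Fucotrim II replicate 2 or P-SiaFNEtoc replicate 1 and to 2 without P-SiaFNEtoc replicate 2 or 3.

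The HSPA5 promoter is shown because it holds both ends of the endoplasmic reticulum stress element, CCAAT and CCACG. Each was found in 3 of the 4 chosen genes (HSPA5, DNAJC3 and EDEM1), against 35.7% and 37.9% of all promoters. The window runs from 250 bases before to 50 after the RefSeq start (chr9:125241294-125241593, minus strand, GRCh38.p14), and capitals mark these letters on either strand:
HSPA5: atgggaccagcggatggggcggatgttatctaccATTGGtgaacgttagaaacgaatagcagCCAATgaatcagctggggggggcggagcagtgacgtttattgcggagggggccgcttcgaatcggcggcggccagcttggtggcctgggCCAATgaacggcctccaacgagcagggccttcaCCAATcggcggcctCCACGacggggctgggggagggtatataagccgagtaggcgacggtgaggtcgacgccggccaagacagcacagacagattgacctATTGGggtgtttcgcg

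**Figure D4:**
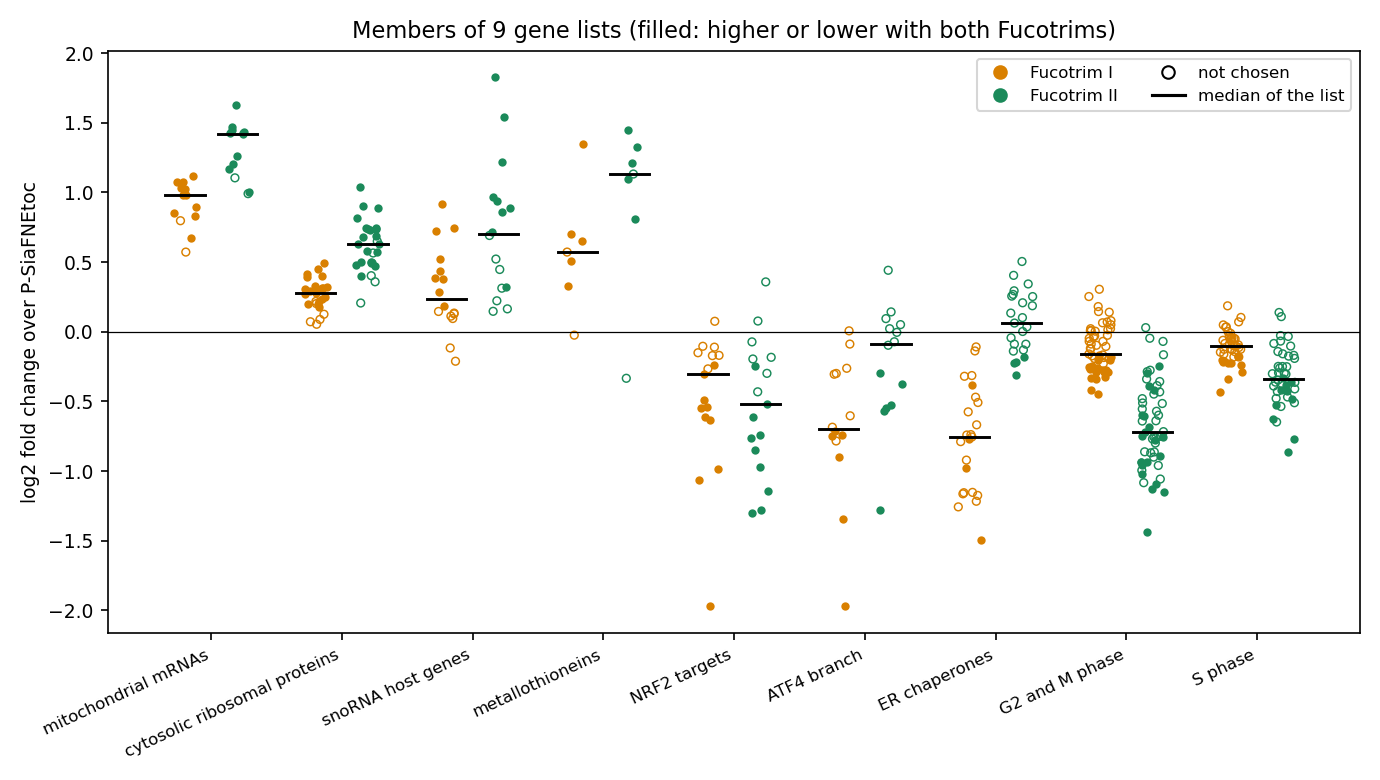
Log2 fold change over P-SiaFNEtoc (vertical) of each tested member of 9 lists with Fucotrim I (orange) and Fucotrim II (green); filled points are genes chosen with both, open points were not, and bars are list medians. The G2 and M phase median is -0.16 with Fucotrim I and -0.72 with Fucotrim II, whereas the endoplasmic reticulum chaperone median is -0.76 and 0.06.

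Steroid and retinoid enzymes were lower where they were chosen, namely DHRS2, ALDH1A1, AKR1C1 and AKR1C2 of 17. DHRS2, a short-chain dehydrogenase (chr14:23630115-23645639), measured 24.7, 27.9 and 26 CPM with Fucotrim I, 13.7 and 19.1 CPM with Fucotrim II and 80.7, 81.6 and 85.3 CPM with P-SiaFNEtoc, and was 3.15-fold and 5.02-fold lower (adjusted p = 1.85e-08 and 2.82e-09). P-SiaFNEtoc was in turn below DMSO (129, 139 and 142 CPM). ALDH1A1, a retinaldehyde dehydrogenase (chr9:72900671-72953053), measured 23.8, 27.3 and 28.8 CPM with Fucotrim I, 31.1 and 22.2 CPM with Fucotrim II and 79.9, 73.3 and 81.8 CPM with P-SiaFNEtoc, 2.95-fold and 2.95-fold lower (adjusted p = 8.5e-08 and 1.49e-07). AKR1C1 and AKR1C2 are close copies, and reads may be split between them.

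Among 11 androgen response genes, FKBP5, TMPRSS2 and SLC45A3 were higher and none lower. FKBP5, a co-chaperone of steroid receptors (chr6:35573590-35728583), measured 1089, 1082 and 1029.8 CPM with Fucotrim I, 868 and 873 CPM with Fucotrim II and 492, 489.8 and 479 CPM with P-SiaFNEtoc, and was 2.19-fold and 1.79-fold higher (adjusted p = 9.61e-09 and 1.36e-07). TMPRSS2, a cell surface serine protease (chr21:41464305-41508158), measured 78.2, 74.6 and 71.6 CPM with Fucotrim I, 78.4 and 74.6 CPM with Fucotrim II and 44.7, 49.5 and 42.5 CPM with P-SiaFNEtoc, 1.64-fold and 1.68-fold higher (adjusted p = 4.17e-06 and 2.24e-06). For TMPRSS2, DMSO was lower still, at 28.3, 29.4 and 28.1 CPM, and SGN-2FF stood at 67, 60.7 and 61.9 CPM. KLK3, which encodes prostate-specific antigen, was not chosen, with 0.56 for Fucotrim I and 0.00 for Fucotrim II on the log2 scale. With the trend with GC content and length removed, 6 of the 11 were higher and 1 was lower.

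Of 18 cholesterol genes, 3 were lower with both Fucotrims (16.7%, beside 9.14% of all genes tested) and none was higher. STARD4, a sterol carrier and 1 of the 3 (chr5:111496033-111512535), had log2 fold changes of -0.93 with Fucotrim I and -0.45 with Fucotrim II (adjusted p = 4.17e-06 and 0.0016). The STARD4 call was lost when the trend with GC content was removed (adjusted p up to 0.0817). The list medians were -0.44 with Fucotrim I and 0.01 with Fucotrim II.

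Metallothioneins, small proteins that bind zinc and copper, were higher with both Fucotrims: MT1E, MT1G, MT1H, MT1X and MT2A of 7 list members. MT1X (chr16:56682470-56684196) measured 37.3, 31.1 and 34.8 CPM with Fucotrim I, 52.8 and 57.3 CPM with Fucotrim II and 22.3, 19.7 and 23.6 CPM with P-SiaFNEtoc, 1.57-fold and 2.51-fold higher (adjusted p = 0.000106 and 9.32e-08). MT1G (chr16:56666730-56668065) measured 28.9, 22.7 and 23.3 CPM with Fucotrim I, 41.1 and 43 CPM with Fucotrim II and 15.8, 14.7 and 15.6 CPM with P-SiaFNEtoc, 1.62-fold and 2.73-fold higher (adjusted p = 0.00012 and 8.22e-08). In both genes the order of the levels was DMSO, P-SiaFNEtoc, Fucotrim I and Fucotrim II, with no overlap between these groups. SGN-2FF lay between the 2 Fucotrims, at 36.3, 30 and 32.4 CPM for MT1G and 45, 39.7 and 42.1 CPM for MT1X. The count of 5 fell to 3 without Fucotrim I replicate 3, P-SiaFNEtoc replicate 1 or P-SiaFNEtoc replicate 2. These genes lie in 1 cluster and are close copies, so that reads may be shared between them.

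All 3 of the chosen metallothionein genes with a promoter in the table (MT1H, MT1X and MT2A) hold TGCACNC, against 11.9% of all promoters. These letters are 1 form of the core of the metal response element, and other forms were not searched or marked. The MT1X promoter is shown as the example (chr16:56682220-56682519, plus strand, GRCh38.p14), with 2 matches in capitals, 1 on each strand:
MT1X: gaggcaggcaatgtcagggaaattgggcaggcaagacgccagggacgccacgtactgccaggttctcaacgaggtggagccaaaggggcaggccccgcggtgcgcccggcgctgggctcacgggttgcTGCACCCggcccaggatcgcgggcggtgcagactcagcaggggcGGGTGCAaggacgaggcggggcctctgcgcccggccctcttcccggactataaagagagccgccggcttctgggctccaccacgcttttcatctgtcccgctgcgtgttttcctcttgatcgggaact

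Part of the cell cycle genes were lower with both Fucotrims than with P-SiaFNEtoc. Of 54 genes of the G2 and M phases, 21 were lower with both and none was higher with both. In the single comparisons 21 were lower and 2 higher with Fucotrim I, and 50 were lower and none higher with Fucotrim II. The 2 Fucotrims went in opposite directions for 1 gene. ECT2, which is needed for cytokinesis (chr3:172750726-172829265), measured 104, 122 and 102 CPM with Fucotrim I, 75.9 and 71.3 CPM with Fucotrim II and 152, 152 and 144 CPM with P-SiaFNEtoc, with log2 fold changes of -0.45 (SE 0.07, adjusted p = 0.000305) with Fucotrim I and -1.02 (SE 0.08, adjusted p = 2.29e-07) with Fucotrim II. CENPE, a kinesin of the kinetochore (chr4:103105811-103198343), measured 39.9, 52.8 and 50.5 CPM with Fucotrim I, 24.9 and 22.2 CPM with Fucotrim II and 65.7, 64 and 61.1 CPM with P-SiaFNEtoc, with log2 fold changes of -0.42 with Fucotrim I and -1.44 with Fucotrim II (adjusted p = 0.00349 and 1.49e-07). DMSO was above P-SiaFNEtoc for both genes, at 159.7, 163 and 153 CPM (ECT2) and 77.3, 81.4 and 74.3 CPM (CENPE). The other chosen genes included AURKA, BUB1, CDC20, TPX2, NEK2, BIRC5 and DLGAP5, whereas MKI67 and TOP2A, with log2 fold changes of 0.06 and 0.02 (Fucotrim I) and -0.60 and -0.64 (Fucotrim II), were not chosen. The count of 21 fell to between 9 and 13 when Fucotrim I replicate 1 or 3 or any P-SiaFNEtoc library was left out, and was 8 at an adjusted p under 0.01.

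Of 42 S phase genes, 10 were lower and none higher: RAD51AP1, CDC6, CLSPN, E2F8, PRIM1, MCM5, MCM6, GINS2, DSCC1 and USP1. RAD51AP1, a protein of homologous recombination (chr12:4538890-4560047), measured 42.7, 54.5 and 48.9 CPM with Fucotrim I, 41.3 and 36 CPM with Fucotrim II and 64.6, 69.5 and 63.3 CPM with P-SiaFNEtoc, with log2 fold changes of -0.43 with Fucotrim I and -0.77 with Fucotrim II (adjusted p = 0.00187 and 1.74e-05). CDC6, which loads the MCM helicase at replication origins (chr17:40287879-40304657), measured 94.7, 96 and 98.4 CPM with Fucotrim I, 92 and 95.2 CPM with Fucotrim II and 116, 125 and 126 CPM with P-SiaFNEtoc, with log2 fold changes of -0.34 with Fucotrim I and -0.38 with Fucotrim II (adjusted p = 0.000652 and 0.00026). This count fell to between 3 and 6 when any Fucotrim I or P-SiaFNEtoc library was left out.

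The promoters of ECT2 and CDC6 are shown because they carry the motifs known for these phases. Of the 14 chosen G2 and M phase genes with a promoter in the table, 9 hold TTTGAA (the letters of the cell cycle genes homology region) and 8 hold CCAAT, against 15.4% and 35.7% of all promoters. Of 7 chosen S phase genes, 4 hold the E2F site TTTCCCGC or TTTGGCGC, against 2.31% of all. Here and for the motifs above, list members that were not chosen were not counted. The shares thus cannot tell chosen from unchosen members of a list. Capitals mark TTTGAA and CCAAT in ECT2 (chr3:172750476-172750775, plus strand) and the E2F site in CDC6 (chr17:40287629-40287928, plus strand), both GRCh38.p14:
ECT2: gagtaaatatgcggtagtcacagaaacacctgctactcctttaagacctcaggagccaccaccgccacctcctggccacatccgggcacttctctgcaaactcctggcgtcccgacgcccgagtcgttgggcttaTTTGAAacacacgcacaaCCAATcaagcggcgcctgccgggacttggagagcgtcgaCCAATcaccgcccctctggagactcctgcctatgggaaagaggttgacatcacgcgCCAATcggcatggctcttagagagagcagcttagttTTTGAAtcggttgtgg
CDC6: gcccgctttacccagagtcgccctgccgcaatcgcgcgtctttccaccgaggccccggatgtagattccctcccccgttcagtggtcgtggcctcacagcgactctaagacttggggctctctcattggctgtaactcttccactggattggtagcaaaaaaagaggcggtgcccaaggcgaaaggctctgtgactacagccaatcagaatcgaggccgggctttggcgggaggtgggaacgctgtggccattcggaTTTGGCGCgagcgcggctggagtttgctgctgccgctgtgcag

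Regulators of the cell cycle and of cell death moved less uniformly. Of 15 CDK inhibitors and G1 cyclins, CCNE1 and TOB1 were higher (13.3%, near the 11% of all genes tested). CDKN1B, at 0.04 (Fucotrim I) and 0.10 (Fucotrim II) on the log2 scale, was not chosen. CCNE1, cyclin E1 (chr19:29811991-29824312), measured 13.9, 12.8 and 14.2 CPM with Fucotrim I, 11.6 and 13.2 CPM with Fucotrim II and 9.27, 9.28 and 9.39 CPM with P-SiaFNEtoc, with log2 fold changes of 0.55 with Fucotrim I and 0.41 with Fucotrim II (adjusted p = 0.00131 and 0.00845). Without Fucotrim II replicate 2 the CCNE1 call was lost (adjusted p = 0.0999). The call of TOB1, an antiproliferative protein (chr17:50862223-50867978), rested on log2 fold changes of 0.15 with Fucotrim I and 0.20 with Fucotrim II (adjusted p = 0.0462 and 0.013) and was lost in 11 of 22 alternatives, with adjusted p up to 0.145. Of 12 p53 targets, BBC3, BAX, FAS, TNFRSF10B and FDXR were higher and none lower, a count that fell to 3 without P-SiaFNEtoc replicate 1 or 3, and with the trend with GC content removed 4 were higher and 1 lower. BBC3, the pro-apoptotic protein PUMA (chr19:47220824-47232860), measured 62.2, 54.7 and 56.3 CPM with Fucotrim I, 68.1 and 82 CPM with Fucotrim II and 40.8, 42.3 and 40.9 CPM with P-SiaFNEtoc, with log2 fold changes of 0.48 with Fucotrim I and 0.86 with Fucotrim II (adjusted p = 0.000442 and 1.66e-06). BAX, which permeabilizes the mitochondrial outer membrane (chr19:48954875-48961798), measured 107, 90.3 and 102 CPM with Fucotrim I, 89.6 and 103 CPM with Fucotrim II and 74, 71.4 and 80 CPM with P-SiaFNEtoc, with log2 fold changes of 0.41 with Fucotrim I and 0.36 with Fucotrim II (adjusted p = 0.00132 and 0.00303). The BAX call was lost when the trend with GC content was removed (adjusted p up to 0.141). In the BCL2 family of 15, BAX and BBC3 were higher (13.3%) and BAK1 and MCL1 lower (13.3%). These shares were near the 11% and 9.14% of all genes tested. The count of lower genes was 1 without Fucotrim I replicate 3 or P-SiaFNEtoc replicate 2, and 4 without Fucotrim II replicate 2. BAK1, a second pore-forming member (chr6:33572552-33580276), had log2 fold changes of -0.42 with Fucotrim I and -0.65 with Fucotrim II (adjusted p = 0.00412 and 0.000137).

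Mitochondrially encoded mRNAs were higher with both Fucotrims in 11 of 13 cases, with list medians of 0.98 and 1.42 on the log2 scale. ND5 (chrMT:12337-14148) and ND6 (chrMT:14149-14673) encode subunits of respiratory complex I. ND5 measured 6092, 8834 and 11148 CPM with Fucotrim I, 13662 and 8436 CPM with Fucotrim II and 3727, 4424 and 4204 CPM with P-SiaFNEtoc, with log2 fold changes of 1.08 with Fucotrim I and 1.42 with Fucotrim II (adjusted p = 0.0119 and 0.00227). ND6 measured 1709.5, 2571 and 3300.0 CPM with Fucotrim I, 3739 and 2738 CPM with Fucotrim II and 1060.4, 1236 and 1204 CPM with P-SiaFNEtoc, with log2 fold changes of 1.11 with Fucotrim I and 1.47 with Fucotrim II (adjusted p = 0.0164 and 0.00369). The spread within the Fucotrims was wide, Fucotrim II replicate 1 was the highest library for both genes, and without it 6 of the 13 mRNAs were called. ND6 lies on the opposite strand from ND5.

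Cytosolic ribosomal protein mRNAs were higher in 20 of 26 cases, with list medians of 0.28 (Fucotrim I) and 0.63 (Fucotrim II). RPL13 (chr16:89560657-89566829) measured 1641, 1361 and 1466 CPM with Fucotrim I, 1874 and 2486 CPM with Fucotrim II and 1037, 1033 and 1106 CPM with P-SiaFNEtoc, with log2 fold changes of 0.49 with Fucotrim I and 1.04 with Fucotrim II (adjusted p = 0.00145 and 1.74e-06). RPS19 (chr19:41860255-41872925) measured 863, 729.6 and 809 CPM with Fucotrim I, 996 and 1192 CPM with Fucotrim II and 571, 562 and 624 CPM with P-SiaFNEtoc, with log2 fold changes of 0.45 with Fucotrim I and 0.90 with Fucotrim II (adjusted p = 0.000754 and 1.41e-06). The count of 20 fell to 12 or 13 without Fucotrim I replicate 1, Fucotrim I replicate 3, P-SiaFNEtoc replicate 1 or P-SiaFNEtoc replicate 2. SnoRNA host genes, which carry small nucleolar RNAs in their introns, were higher in 9 of 16 cases (medians 0.23 and 0.70). SNHG19 (chr16:2154782-2155358) measured 17.4, 15.6 and 13 CPM with Fucotrim I, 25.7 and 32.1 CPM with Fucotrim II and 8.94, 7.55 and 7.85 CPM with P-SiaFNEtoc, 1.89-fold and 3.55-fold higher (adjusted p = 0.00014 and 1.08e-07). SNHG9 (chr16:1964996-1965504) measured 12, 12.7 and 12.2 CPM with Fucotrim I, 15.3 and 18.8 CPM with Fucotrim II and 7.62, 6.75 and 7.6 CPM with P-SiaFNEtoc, 1.67-fold and 2.32-fold higher (adjusted p = 0.000294 and 1.74e-06). Both overlap exons of a snoRNA on the same strand. The share of reads on mitochondrial genes given above moved in the same direction in these groups. With mitochondrially encoded genes left out of the fit, none of 116 log2 fold changes of named genes lost its call or changed sign. The part of this share in these results was not tested further.

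Smaller numbers were chosen in the remaining lists. DNAJB4 and HSPB8 of 14 cytosolic heat shock proteins were lower (14.3%, beside 9.14% of all genes tested). HSPB8, a small heat shock protein (chr12:119178931-119194746), had log2 fold changes of -0.57 with Fucotrim I and -0.94 with Fucotrim II (adjusted p = 0.000278 and 3.35e-06), and DNAJB4, a co-chaperone of HSP70 (chr1:77979175-78017964), of -0.50 with Fucotrim I and -0.88 with Fucotrim II (adjusted p = 0.0144 and 0.000328), a call lost in 5 of 22 alternatives, with adjusted p up to 0.0804, among them the removal of Fucotrim I replicate 1, Fucotrim I replicate 3 or P-SiaFNEtoc replicate 2. Of 22 glycolysis and hypoxia genes, EGLN3, PGAM1 and PGK1 were lower (13.6%) and VEGFA higher (4.55%), beside 9.14% and 11% of all genes tested. Without Fucotrim II replicate 2 the lower genes numbered 5. EGLN3, a prolyl hydroxylase of the hypoxia-inducible factors (chr14:33924227-33951074), measured 2.76, 2.93 and 2.96 CPM with Fucotrim I, 2.6 and 2.51 CPM with Fucotrim II and 6.39, 7.74 and 7.67 CPM with P-SiaFNEtoc, 2.51-fold and 2.83-fold lower (adjusted p = 2.01e-05 and 6.82e-06). PGAM1, a glycolytic mutase (chr10:97426191-97433444), had log2 fold changes of -0.29 with Fucotrim I and -0.71 with Fucotrim II (adjusted p = 0.00698 and 5.8e-06). VEGFA, the main angiogenic growth factor (chr6:43770211-43786487), measured 102, 110.5 and 123 CPM with Fucotrim I, 161 and 142 CPM with Fucotrim II and 101, 94.2 and 91.4 CPM with P-SiaFNEtoc, with log2 fold changes of 0.22 with Fucotrim I and 0.66 with Fucotrim II (adjusted p = 0.0411 and 1.38e-05). The Fucotrim I part of VEGFA was small and its call was lost in 9 of 22 alternatives, with adjusted p up to 0.217.

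In the list of 14 WNT and Notch feedback genes, DKK1, RNF43 and LGR5 were lower (21.4%) and HES4 and JAG2 higher (14.3%). Over all genes tested, 9.14% were lower and 11% higher. RNF43, a ubiquitin ligase that removes WNT receptors (chr17:58352500-58417534), measured 46.3, 44.3 and 43.8 CPM with Fucotrim I, 39.3 and 44 CPM with Fucotrim II and 73.3, 77.2 and 69.5 CPM with P-SiaFNEtoc, with log2 fold changes of -0.71 with Fucotrim I and -0.82 with Fucotrim II (adjusted p = 4.11e-06 and 1.27e-06). DMSO, at 52, 48.2 and 48.2 CPM, was nearer to the Fucotrims, so that P-SiaFNEtoc was the highest condition.

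The chosen genes also shared sequence properties that the rule did not use. The longest GENCODE transcript of the higher genes had a median GC content of 56.9% and a median length of 3278 bases, that of the lower genes 43.1% and 4613 bases, and that of all genes tested 48.1% and 3761 bases. In the 20% of genes with the highest GC content (58.2% to 76%), 24% were higher and 2.72% lower, and in the lowest 20% (29.2% to 40.5%) 2.96% were higher and 15% lower. By chromosome, 15.5% of the genes on chromosome 19 and 17.9% on chromosome 16 were higher and 2.54% and 5.66% lower, while 3.43% on chromosome 18 were higher and 14.7% lower. Of 890 long noncoding RNAs, 93 (10.4%) were higher and 15 (1.69%) lower, and of 376 transcribed pseudogenes 47 (12.5%) were higher and 5 (1.33%) lower. The higher shares were near the 11% of all genes tested, and the lower shares were below its 9.14%.

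The size of the trend with GC content varied between libraries. The median difference from P-SiaFNEtoc in the 20% of genes with the highest GC content, minus that in the lowest 20%, was 0.28, 0.04 and 0.26 on the log2 scale in the Fucotrim I libraries and 0.32 and 0.63 in the Fucotrim II libraries. It was between -0.06 and 0.07 in each P-SiaFNEtoc library against the other P-SiaFNEtoc libraries, and between -0.28 and -0.13 in DMSO. Fucotrim I replicate 2 was thus near P-SiaFNEtoc and Fucotrim II replicate 2 farthest from it. With the trend with GC content and length removed from each library, 1519 genes were higher and 1688 lower. Of those chosen before, 1154 of the 1613 (71.5%) and 1061 of the 1342 (79.1%) were chosen again, and none was called in the opposite direction. Of the genes beyond 1 on the log2 scale, 118 of 132 higher and 103 of 106 lower were chosen again. Of the list members, 19 of 21 G2 and M phase genes, 7 of 10 S phase genes, 10 of 10 NRF2 targets, 6 of 6 ATF4 targets, 17 of 20 ribosomal protein mRNAs, 9 of 9 snoRNA hosts, 3 of 5 metallothioneins, 3 of 5 p53 targets and 1 of 4 endoplasmic reticulum genes were chosen again. The part of GC content in the individual differences was not tested further.

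**Figure D5:**
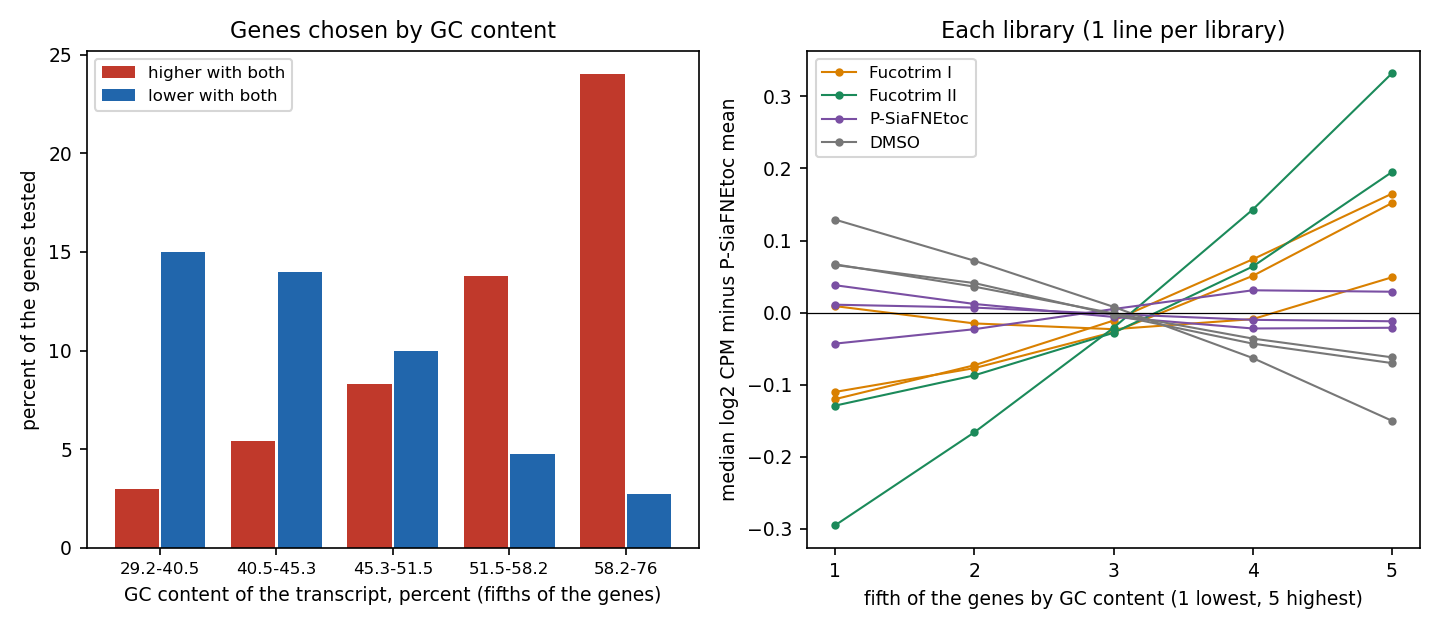
Left, percent of tested genes that were higher (red) or lower (blue) with both Fucotrims in each of 5 bins of GC content with equal numbers of genes; right, median log2 CPM of each library minus the P-SiaFNEtoc mean (for P-SiaFNEtoc libraries, the mean of the other ones) in these bins. The red bars climb from 2.96% to 24%, and Fucotrim II replicate 2 has the steepest line, from -0.295 to 0.332.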

How the data were processed

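CWR22RV1 cells treated with Fucotrim I (3 libraries), Fucotrim II (2) or P-SiaFNEtoc (3) were compared. The authors made stranded mRNA libraries, sequenced single reads, used Cutadapt for trimming and HISAT2 for alignment to hg38, and obtained gene counts from featureCounts. They deposited whole-number counts without normalization, 1 table per inhibitor. The annotation release, the strand setting and the handling of reads with several matches are not given in the sources used here, and such choices decide what overlapping or duplicated genes receive. Tables were joined on NCBI gene number, and 27819 genes were shared, with at most 0.000733% of a library lost.

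Low genes were removed with filterByExpr (at its settings of 10 counts and a total of 15), and libraries were scaled by TMM. 1 edgeR 4.0.16 fit of the 3 groups in R 4.3.3 gave robust quasi-likelihood tests, two-sided, adjusted by Benjamini-Hochberg over 14686 genes in each comparison. Levels are TMM-scaled CPM. The test was tested on simulated data with known changes before use. Replicates of a group differed by more than counting noise (chi-square per degree of freedom between 1.97 and 23.83), and depth ranged from 12553094 to 19981314 counts.

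Named genes are the 6 largest in each direction with 50 or more counts on average and no overlap between groups, the 2 largest of each list, all chosen genes of the fucose and sialic acid lists, and those of 10 preset genes that were chosen. IGFBP3, CCN2, AREG, CDH2, IGF1R, S100P, MLLT6, PSMB3, NMRAL1, POFUT2, SYP, CHGB and COL1A1 were named after their values were seen. The members and lists were chosen with earlier results of these data known. Correcting for GC content and transcript length (loess offset per library; 14356 genes had values, mitochondrial genes did not) was added after seeing the data. Alternatives were DESeq2 1.42.0 (size factors and test), limma-voom (limma 3.58.1), other filters, thresholds and fits, a replicate block, leaving out mitochondrially encoded genes and leaving out each library. Of 61 named genes, 59 were found in GENCODE v44, and exons of 9 overlap another gene on the same strand and of 18 on the opposite strand. Promoters came from RefSeq GRCh38.p14. All columns of per-sample values that were mapped were used. Some genes that met the naming rule are not reported here.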

Additional observations from a re-analysis of the deposited data

Results flagged for a closer look

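Fucotrim II and Fucotrim I differed from each other for 24 of the named genes, by the test of Fucotrim II minus Fucotrim I in the same edgeR fit (Benjamini-Hochberg adjusted over all genes). Values here are log2 differences of Fucotrim II minus Fucotrim I, so that a positive value means a higher level with Fucotrim II. Doses differed (60 and 30 μM), and compound and dose cannot be told apart.

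Higher genes that were farther from P-SiaFNEtoc with Fucotrim II were TRNC (0.83, adjusted p = 0.00687), MT1G (0.75, 0.000139), MT1X (0.68, 0.00019), BBC3 (0.38, 0.00688), SNHG19 (0.91, 0.000209), SNHG9 (0.47, 0.0129), RPL13 (0.55, 0.00224), RPS19 (0.45, 0.0027), VEGFA (0.44, 0.00214) and S100P (0.41, 0.00343). FKBP5 was the 1 higher gene farther with Fucotrim I (-0.29, adjusted p = 0.00514).

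Lower genes that were farther with Fucotrim II were CENPE (-1.02, adjusted p = 2.04e-05), DHRS2 (-0.67, 0.00119), ECT2 (-0.57, 0.00024), PGAM1 (-0.42, 0.00262), IGFBP3 (-0.42, 0.00183), HSPB8 (-0.37, 0.0237), DKK1 (-0.35, 0.0437) and RAD51AP1 (-0.33, 0.0303). Those farther with Fucotrim I were HSPA5 (1.19, adjusted p = 2.82e-06), REG4 (0.98, 0.0232), SLC7A11 (0.69, 0.00168), DNAJC3 (0.55, 8.77e-05) and STARD4 (0.48, 0.00496). Whether single libraries carry these differences between the 2 Fucotrims was not examined.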

How the results depend on the processing

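Of 2955 genes, the same direction and call were kept by 2927 with DESeq2's size factors, 2859 with limma-voom, 2500 with the DESeq2 test, 2215 with the GC and length trend removed and 2928 without mitochondrially encoded genes, and none was called in the opposite direction in any alternative. The joint count was 3756 in a fit of all 14 libraries and 3622 with each Fucotrim fitted alone. At an adjusted p under 0.01 it was 1551 (897 higher, 654 lower; 1954 for Fucotrim I alone), with both log2 fold changes beyond 0.58 it was 737 (488 and 249; 1003 for Fucotrim I and 2383 for Fucotrim II), and in 1 test of the mean of the 2 Fucotrims it was 6188 (3110 and 3078), all by the construction of the thresholds. When 1 library was left out, the joint count lay between 1809 and 3536, the higher genes between 1043 and 1879, the lower between 766 and 1657, Fucotrim I between 2190 and 4913 and Fucotrim II between 5449 and 6695, with the lowest joint counts without Fucotrim I replicate 3, P-SiaFNEtoc replicate 1 or P-SiaFNEtoc replicate 2. The FUOM difference with Fucotrim II changed sign to -0.12 with the GC and length trend removed (adjusted p = 0.222), and this was the 1 reversed value among the named genes; the cause was not tested.

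Whether the replicate numbers of the labels pair the libraries could not be decided. Correlations of deviations between same-numbered libraries ranged from -0.36 to 0.149 by the numbers of the titles and from -0.066 to 0.34 by those of the library names. Deviations from the mean of 2 libraries mirror each other, so that each correlation with 1 Fucotrim II library fixes that with the other. As a replicate block, the title numbers gave 2219 genes (1258 higher and 961 lower), and those of the library names, which differ for Fucotrim II, gave 3367 (1771 and 1596). With the title numbers as a block, 13 of the G2 and M phase genes, 3 S phase genes and 3 metallothioneins were called. At these depths the smallest log2 fold change of a chosen gene was 0.15 in size in either comparison.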
